A study of Homo sapiens with 13 samples.

Results

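Docetaxel was added to adapalene in PC3 cells, an established human prostate cancer cell line that carried a short hairpin RNA against TIMP1. The comparison sets the 3 libraries labelled Combo, which received both drugs, against the 3 libraries labelled Adapalene. These are 6 of the 13 libraries of the series. Adapalene was given at 5 µM and docetaxel at 1 nM, each for 48 h, but the labels do not restate the doses of the combination. The other groups used here are Vehicle (3 libraries, neither drug) and Docetaxel (4 libraries, docetaxel without adapalene). Every group carries the hairpin, and cells without it were not analysed here. All 15734 genes that passed a filter on low counts were tested, of 67882 identifiers in the count table. Per the series' design text the replicates are technical, so the p-values measure only the spread between technical replicates of this line.

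Docetaxel is a taxane: it binds beta-tubulin, stabilises microtubules and disturbs the mitotic spindle, and it is a standard chemotherapy of advanced prostate cancer. Adapalene is a synthetic retinoid that activates nuclear retinoic acid receptors, which bind DNA together with retinoid X receptors. In tumour cells taxanes are known to set off inflammatory and interferon signalling besides mitotic arrest, and retinoids are known to slow proliferation. The comparison asks which transcripts docetaxel changes when adapalene is already there, and the Docetaxel and Vehicle libraries give the same measurement without adapalene. The 2 measurements share no library.

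The 6 libraries held 11967957 to 16055293 counts and 22688 to 24515 detected genes. Mitochondrially encoded transcripts took 1.01 to 2.82% of counts, above 2% among these 6 only in Adapalene replicate 3 and Combo replicate 3. Vehicle replicate 3 (2.61%) and Docetaxel replicate 4 (2.62%), which enter the same model, were above 2% as well. On the first principal component of the 13 libraries, which held 36.1% of the variance, Adapalene replicate 3 lay at 5.98, away from Adapalene replicates 1 and 2 at −21.2 and −36.7. The Combo replicates lay at 2.14, −24.0 and 11.7 there. TIMP1, the hairpin's target, had 98.4, 105 and 70.4 CPM (counts scaled by library size) in Adapalene replicates 1 to 3 and at 98.1, 109 and 112 CPM in Combo. Its difference between the groups (log2 0.21, 95% interval −0.05 to 0.48) was not called. The epithelial keratin genes KRT8 and KRT18 of the line check were abundant. Leukocyte markers summed to 2.3 to 3.5 CPM in Adapalene and 4.11 to 6.79 CPM in Combo, and 11 of 13 did not pass the filter. The 2 that did were ITGAM (log2 1.24) and PTPRC (log2 0.41), neither of them called. MS4A1 and NKG7 had no count in any library. The part of these shifts in the results was not tested.

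Adding docetaxel to adapalene raised 6 genes and lowered none at an adjusted p under 0.05, the threshold for a call. They are the linker histone genes H1-2 and H1-10, the core histone genes H2BC4 and H2BC12, the transcription factor gene JUNB, and PIM3, which encodes a serine/threonine kinase. The calls are 0.0381% of the genes tested, and each was under 2-fold. Docetaxel without adapalene, in contrast, called 4082 genes (25.9%), with 2073 higher and 2009 lower, and 854 of the higher and 60 of the lower ones changed at least 2-fold. For Combo against Adapalene 793 genes (5.04%) had an unadjusted p under 0.05, 509 of them higher and 284 lower. Counts of list members at that threshold, given below, are to be read beside this share. DESeq2 called 39 genes (0.248%), 38 higher and 1, IGFBP5, lower. Adjusted p-values are from the quasi-likelihood test of edgeR with Benjamini-Hochberg adjustment unless DESeq2 is named.

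H1-2 encodes a linker histone, which binds the DNA between nucleosomes. Its Adapalene replicates 1 to 3 had 40.6, 38.0 and 41.1 CPM (39.9 ± 1.67, SD, n = 3) and its Combo replicates 68.7, 70.1 and 94.6 CPM (77.8 ± 14.6, SD, n = 3). The groups did not overlap, and Combo replicate 3 was the highest. The change was 1.95-fold (log2 0.96, SE 0.11, adjusted p = 0.00539). H1-2 lies on chromosome 6 (26055787 to 26056428, minus strand, GENCODE 29 on GRCh38), in the large histone cluster.

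Both core histone genes among the calls encode H2B, one of the proteins of the nucleosome's octamer. H2BC4 went from 7.61, 7.66 and 8.84 CPM in Adapalene to 13.9, 14.7 and 18.3 CPM in Combo. All Combo libraries were above all Adapalene libraries, and the change was 1.94-fold (log2 0.96, SE 0.14, adjusted p = 0.0337). H2BC12 went from 31.9, 29.2 and 31.4 CPM to 51.3, 48.0 and 57.7 CPM, again without overlap. Its change was 1.7-fold (log2 0.76, SE 0.10, adjusted p = 0.009). H2BC4 (chromosome 6, 26114873 to 26123926) and H2BC12 (chromosome 6, 27146418 to 27146798) are both on the minus strand.

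H1-10, a linker histone gene whose expression does not follow DNA replication, stood at 75.3, 72.8 and 71.7 CPM in Adapalene and at 96.8, 108 and 120 CPM in Combo. The 3 Adapalene values lay close together and the Combo values did not reach down to them. The change was 1.48-fold (log2 0.56, SE 0.09, adjusted p = 0.0394). H1-10 is on chromosome 3 (129314771 to 129316277, minus strand), away from the other histone genes.

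JUNB encodes a member of the AP-1 transcription factors, which are switched on early after many stimuli. It stood at 115, 96.2 and 120 CPM in Adapalene and at 165, 157 and 207 CPM in Combo. The lowest Combo library was above the highest Adapalene library, and the change was 1.59-fold (log2 0.67, SE 0.10, adjusted p = 0.0341). JUNB is on chromosome 19 (12791496 to 12793315, plus strand). PIM3 went from 37.1, 31.1 and 37.5 CPM to 49.9, 51.6 and 62.7 CPM, a change of 1.55-fold (log2 0.64, SE 0.10, adjusted p = 0.0341). It is on chromosome 22 (49960513 to 49964080, plus strand).

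**Figure D1:**
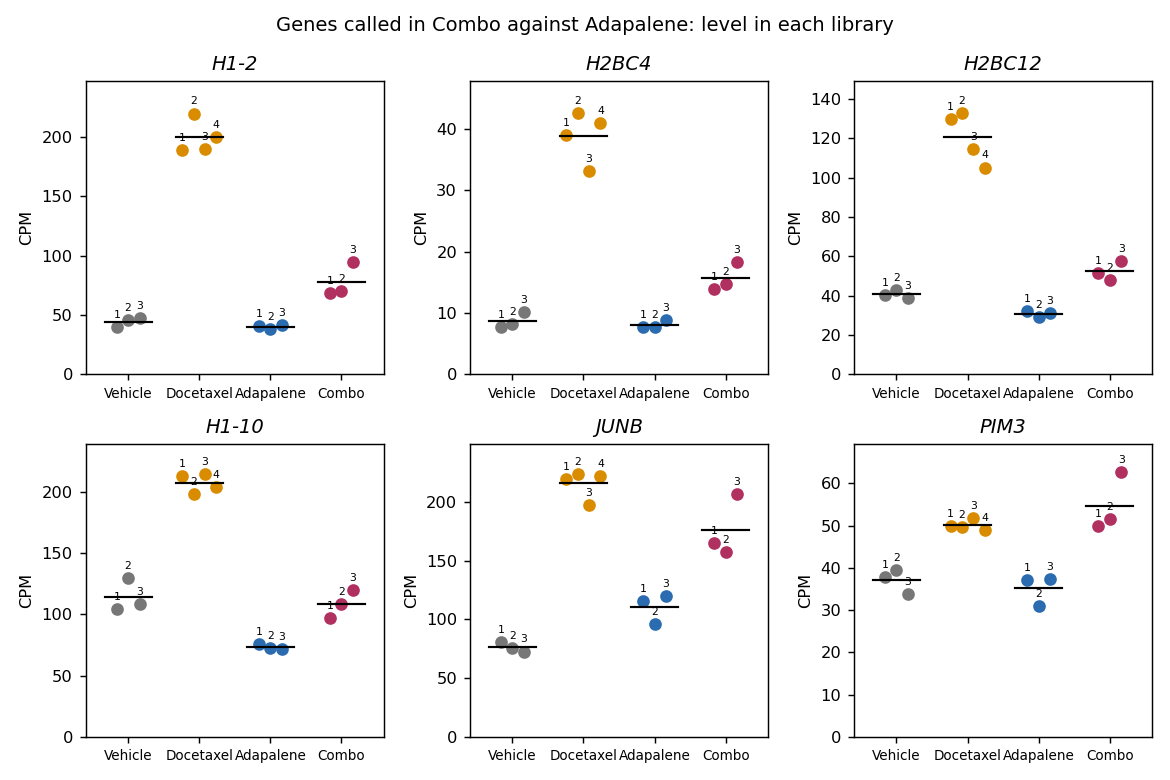
CPM of the 6 called genes in each of the 13 libraries, with replicate numbers at the points and a bar at each group's mean; the axes are linear and start at 0. In every panel the 3 Combo points lie above the 3 Adapalene points, and for the 4 histone genes the Docetaxel points lie higher than Combo.

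All 6 genes were also higher with docetaxel alone (6 of 4082 calls there, 0.147%). The 4 genes H1-2, H2BC4, H2BC12 and JUNB moved less with adapalene present: the fold was 4.54 without and 1.95 with it for H1-2, 4.49 and 1.94 for H2BC4, 2.97 and 1.7 for H2BC12, and 2.82 and 1.59 for JUNB. The difference of the docetaxel effects was itself called for these 4 (log2 −1.22, −1.21, −0.81 and −0.83, adjusted p = 0.00245, 0.008, 0.00886 and 0.0107). Over all genes tested that difference was called in 227 (1.44%), 33 positive and 194 negative. Counts of list members called for it, given below, are to be read beside this share and its mostly negative sign. H1-10 changed 1.82-fold without adapalene and its difference was not called (log2 −0.30, adjusted p = 0.232). PIM3 was the only one of the 6 whose fold was larger with adapalene, at 1.55 against 1.35 (difference log2 0.20, adjusted p = 0.476, not called).

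The promoters of the 4 genes whose change differed with adapalene are shown because the H2B pair shares an element, the octamer, that the H1-2 and JUNB windows do not hold. Each run is the 250 bases before the RefSeq start (GRCh38.p14), 5′ to 3′ on the gene's strand. Capitals mark any of the motifs searched on both strands: the octamer ATTTGCAT, the H1 box AAACACA, the box known as CCAAT, the TATA box written TATAAA, the AP-1 site TGANTCA, the cyclic AMP response element TGACGTCA, the NF-kappaB-like site GGANTTTCC and the CArG box. Neighbouring or overlapping motifs run together. The motifs were chosen with the values known.
H1-2 (chr6:26056471-26056720, minus strand): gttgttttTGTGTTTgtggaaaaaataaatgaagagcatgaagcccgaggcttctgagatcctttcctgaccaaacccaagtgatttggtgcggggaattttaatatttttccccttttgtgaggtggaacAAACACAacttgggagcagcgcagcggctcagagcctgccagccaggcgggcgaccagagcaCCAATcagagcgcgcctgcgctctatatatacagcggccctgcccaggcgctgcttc
H2BC4 (chr6:26123927-26124176, minus strand): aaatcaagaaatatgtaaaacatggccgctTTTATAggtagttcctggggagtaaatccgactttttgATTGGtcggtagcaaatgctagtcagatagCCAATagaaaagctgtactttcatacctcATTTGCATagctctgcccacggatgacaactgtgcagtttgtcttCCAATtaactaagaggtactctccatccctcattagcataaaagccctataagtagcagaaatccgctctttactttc
H2BC12 (chr6:27146859-27147108, minus strand): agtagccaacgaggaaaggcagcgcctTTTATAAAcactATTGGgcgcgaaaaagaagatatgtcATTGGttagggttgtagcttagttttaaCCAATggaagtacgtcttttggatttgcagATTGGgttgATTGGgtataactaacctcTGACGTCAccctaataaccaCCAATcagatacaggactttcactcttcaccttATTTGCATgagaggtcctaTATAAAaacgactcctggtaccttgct
JUNB (chr19:12791236-12791485, plus strand): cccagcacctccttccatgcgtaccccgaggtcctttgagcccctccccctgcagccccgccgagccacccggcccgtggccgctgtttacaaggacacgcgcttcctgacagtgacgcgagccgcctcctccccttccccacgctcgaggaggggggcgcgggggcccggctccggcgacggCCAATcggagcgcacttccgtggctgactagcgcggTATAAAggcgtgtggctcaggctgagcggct

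The octamer, bound by OCT1 at H2B genes, is in H2BC4 from position −123 to −116 before the start and in H2BC12 from −46 to −39. It was in 1.66% of 27305 promoters of the same length, in 16 of the 34 promoters found for the tested replication-dependent histone genes (47.1%) and in 11 of 14 H2B promoters. H1-2 holds the H1 box, known from linker histone promoters, at −242 to −236 and at −119 to −113, as 4.95% of all promoters do. CCAAT is in all 4 windows shown and in 33% of all promoters. The PIM3 window held none of these motifs and that of H1-10 held TATAAA alone, at −31 to −26. A match describes the letters and not binding.

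Replication-dependent histone genes supply nucleosome proteins during DNA synthesis and end mostly in a stem-loop in place of a poly(A) tail. The libraries were made from poly(A)-selected RNA, so these values measure the polyadenylated share of histone transcripts. Several family members are near-identical copies, and the treatment of reads matching more than 1 of them is not stated by the labels or notes, so values of single members are uncertain. Of 68 listed genes 35 were tested, and 3 were called, all higher. A further 14 had a positive change at an unadjusted p under 0.05, none had a negative one, and 33 of 35 log2 values were above 0. The median was 0.76 against −0.01 over all genes tested. In 12 of 35 genes all Combo libraries lay above all Adapalene libraries, where 4.8% of all genes tested did so and 3.85% lay entirely below.

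The histone families lay on the same side. The 3 linker genes H1-2, H1-3 and H1-4 had a median log2 change of 1.30, the 7 H2A genes 0.73, the 14 H2B genes 0.76, the 6 H3 genes 0.51 and the 5 H4 genes 0.81. All of the H1, H2A and H2B members were above 0, and the 2 exceptions were H3C2 (log2 −0.11) and H4C3 (log2 −0.54), both under 1 CPM on average. DESeq2 called 10 members, among them H1-4 (log2 2.02), which stood at 1.01, 0.645 and 1.17 CPM in Adapalene and 3.24, 2.54 and 5.74 CPM in Combo. H2BC8 (log2 1.33 by DESeq2) went from 3.88, 4.52 and 7.26 CPM to 12.7, 7.98 and 18.7 CPM. H1-4 and H2BC8 were chosen for mention after their values were seen. With docetaxel alone 32 of 35 were called higher, with a median of 2.17, and the difference of the effects was called for 8, all of them negative, that is with a lower log2 change in the presence of adapalene. Replication-independent variants had a median of 0.05 over 11 genes, with H1-10 the 1 called.

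Inflammatory secretory genes, which encode cytokines, chemokines and the prostaglandin synthase PTGS2, had higher means in Combo in every one of the 21 members tested, but none was called by edgeR. At an unadjusted p under 0.05 there were 16 positive and no negative changes, and DESeq2 called 5: CCL20, IL1A, CXCL2, CSF2 and PTGS2. The median log2 change was 0.66. In 8 of 21 (38.1%) all Combo libraries lay above all Adapalene libraries, where 4.8% of all genes tested did so. With docetaxel alone all 21 were called higher, with a median of 1.91, and 7 of the differences were called, each as a smaller change with adapalene.

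IL1A, an alarmin cytokine gene, stood at 2.30, 1.85 and 2.84 CPM in Adapalene and at 6.54, 4.21 and 7.01 CPM in Combo. The groups did not overlap, but the change missed the threshold (log2 1.35, 95% interval 0.85 to 1.84, adjusted p = 0.0725). DESeq2 called it at an adjusted p of 0.000166. CXCL2, a neutrophil-attracting chemokine gene, went from 8.62, 8.23 and 12.9 CPM to 22.9, 15.1 and 33.6 CPM (log2 1.27, 95% interval 0.73 to 1.80, adjusted p = 0.129). It did not overlap either, and DESeq2 called it at 0.000242. Both were also called by edgeR without Adapalene replicate 3 (IL1A 1.503, CXCL2 1.496 on the log2 scale, adjusted p = 0.0333 and 0.0401) or without Combo replicate 2 (1.54 and 1.51, adjusted p = 0.0113 each). IL1A was called without Vehicle replicate 3 as well, at an adjusted p of 0.0481. Other left-out libraries moved both away from the threshold: the adjusted p was 0.533 for IL1A and 0.858 for CXCL2 without Adapalene replicate 1, and 0.471 and 0.71 without Adapalene replicate 2. Without Combo replicate 3 IL1A stood at log2 1.21 (adjusted p = 0.303) and CXCL2 at 0.94 (adjusted p = 0.626).

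IL6, a cytokine gene that signals through gp130, varied widely between replicates. It stood at 16.7, 8.39 and 30.7 CPM in Adapalene and 41.5, 16.2 and 66.0 CPM in Combo. The ranges overlapped, and replicate 2 was the lowest and replicate 3 the highest in each group (log2 1.15, 95% interval 0.31 to 1.9955, adjusted p = 0.764). CXCL8, the interleukin-8 gene, showed the same order of replicates, with 285, 232 and 400 CPM against 423, 339 and 685 CPM (log2 0.66, 95% interval 0.18 to 1.14, adjusted p = 0.756). Among the other members, chosen after their values were seen, CXCL6 had little spread, at 62.8, 55.4 and 63.2 CPM against 80.0, 79.4 and 82.4 CPM (log2 0.41, adjusted p = 0.445).

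NF-kappaB genes encode the subunits of that inflammatory transcription factor and the inhibitors it switches on in feedback. All 15 tested had a higher mean in Combo, 11 of them at an unadjusted p under 0.05, and edgeR called none. The median log2 change was 0.39, with 1.12 for docetaxel alone, where all 15 were called higher. DESeq2 called 3: the inhibitor gene NFKBIA, the subunit gene RELB and the kinase gene IRAK2. NFKBIA, picked for mention after its values were seen, went from 118, 104 and 140 CPM to 186, 161 and 218 CPM (log2 0.64, edgeR adjusted p = 0.0889). RELB, picked in the same way, went from 25.1, 25.1 and 31.5 CPM to 43.9, 37.5 and 43.3 CPM (log2 0.61, edgeR adjusted p = 0.0791). TNF, a cytokine gene that activates this pathway, had no count in any library. Other genes of the MHC region of chromosome 6 were as low, though not all: the kinase subunit gene CSNK2B had no count and RPS18, a ribosomal protein gene that every cell uses, at most 1 in a library. Both were picked after their counts were seen. The counts therefore do not show whether TNF was expressed.

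In 250-base promoters the NF-kappaB-like site GGANTTTCC was in 10 of the 18 promoters found for the tested inflammatory genes (55.6%), in none of the 34 histone promoters and in 1.47% of all promoters. The AP-1 site TGANTCA was in 5 of the 18 and in 6.6% of all promoters.

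**Figure D2:**
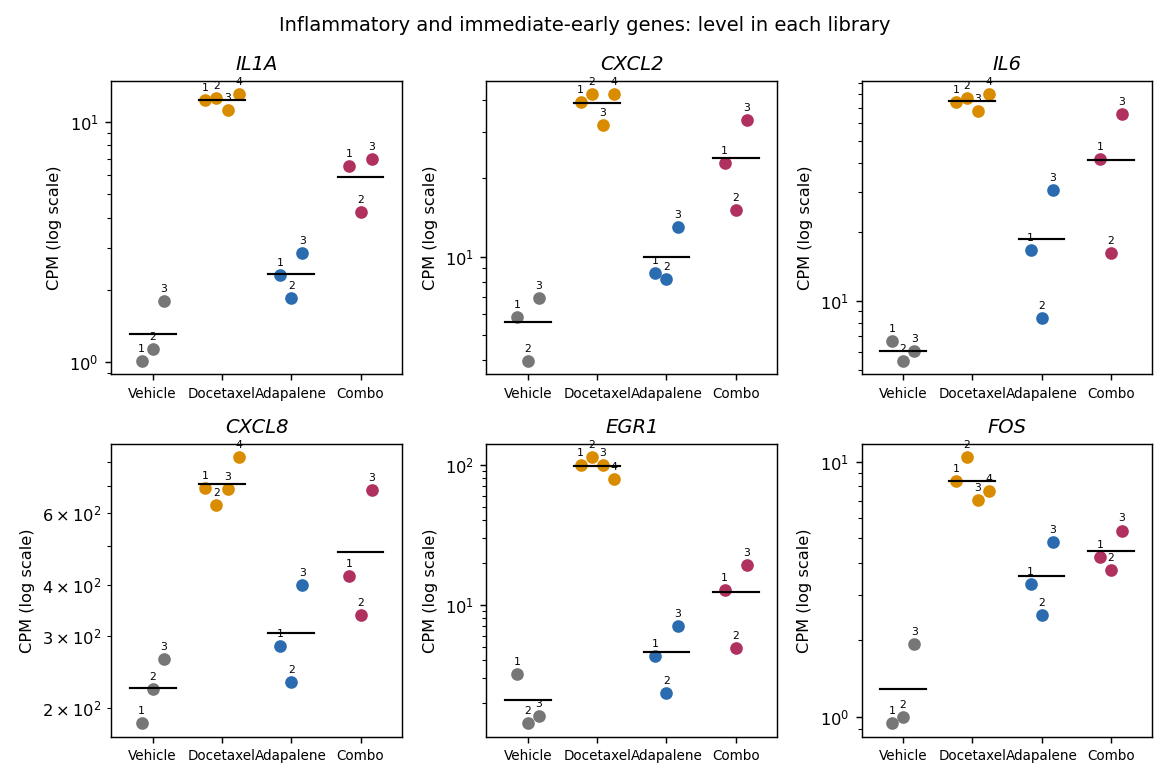
CPM on a log axis of 4 inflammatory genes (IL1A, CXCL2, IL6, CXCL8) and the immediate-early genes EGR1 and FOS in each library, with replicate numbers and a bar at each group's mean. Combo and Adapalene do not overlap for IL1A and CXCL2 and overlap for the others; none of these 6 was called for Combo against Adapalene.

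Immediate-early genes are transcribed within minutes of a stimulus, without new protein synthesis. JUNB was the 1 of 30 tested that was called. At an unadjusted p under 0.05 there were 13 positive and no negative changes, and the median log2 change was 0.38. All Combo libraries lay above Adapalene in 9 of 30 (30%), where 4.8% of all genes tested did so. EGR1, a zinc finger transcription factor gene, stood at 4.31, 2.34 and 7.09 CPM in Adapalene and 12.8, 4.93 and 19.2 CPM in Combo. The groups overlapped and replicate 2 was the lowest in each (log2 1.43, 95% interval 0.57 to 2.29, adjusted p = 0.548). Without Combo replicate 2 EGR1 was called (log2 1.80, adjusted p = 0.0289), while without Combo replicate 3 or Adapalene replicate 2 it stood at log2 0.98 and 1.12 (adjusted p = 1 and 0.999). With docetaxel alone EGR1 rose by 5.57 on the log2 scale, and the difference was called (log2 −4.14, adjusted p = 0.00399). FOS, the partner of JUN proteins in AP-1, had 3.30, 2.50 and 4.84 CPM against 4.24, 3.77 and 5.37 CPM (log2 0.33, 95% interval −0.24 to 0.91, adjusted p = 0.999). Its docetaxel effect alone was 2.68, and the difference was called (log2 −2.35, adjusted p = 0.00886). MYC and ATF3, mentioned after their values were seen, were called by DESeq2 (log2 0.38 and 1.05) and not by edgeR (adjusted p = 0.116 and 0.218).

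Interferon-stimulated genes, the antiviral set that type I interferon switches on, showed another pattern. Of 36 tested 32 were called higher with docetaxel alone, with a median log2 change of 1.03. On top of adapalene edgeR called none, 1 had an unadjusted p under 0.05, DESeq2 called 1, and the median was 0.00 with 18 of 36 above 0. The 1 was IRF1, which is also a target of NF-kappaB, at 38.3, 34.4 and 46.6 CPM against 57.4, 52.95 and 76.4 CPM (log2 0.65, edgeR adjusted p = 0.139). For 13 members the difference of the effects was called, all with a smaller change in the presence of adapalene. Over all genes tested 1.44% were called for it, 194 of these 227 in the negative direction.

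OAS3, which encodes an RNA-sensing enzyme, stood at 555, 641 and 304 CPM in Adapalene and 466, 645 and 397 CPM in Combo (log2 0.01, 95% interval −0.45 to 0.47). Adapalene replicate 3 was the lowest of the group. With 1 library left out the log2 value took either sign, from −0.25 without Adapalene replicate 3 to 0.23 without Adapalene replicate 2, and was not called. MX1 and IFIT1, antiviral effector genes, were at 241, 291 and 104 CPM against 201, 307 and 173 CPM, and at 93.7, 96.6 and 57.6 CPM against 87.2, 103 and 76.7 CPM. The wide spread in Adapalene limits what these members can show.

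**Figure D3:**
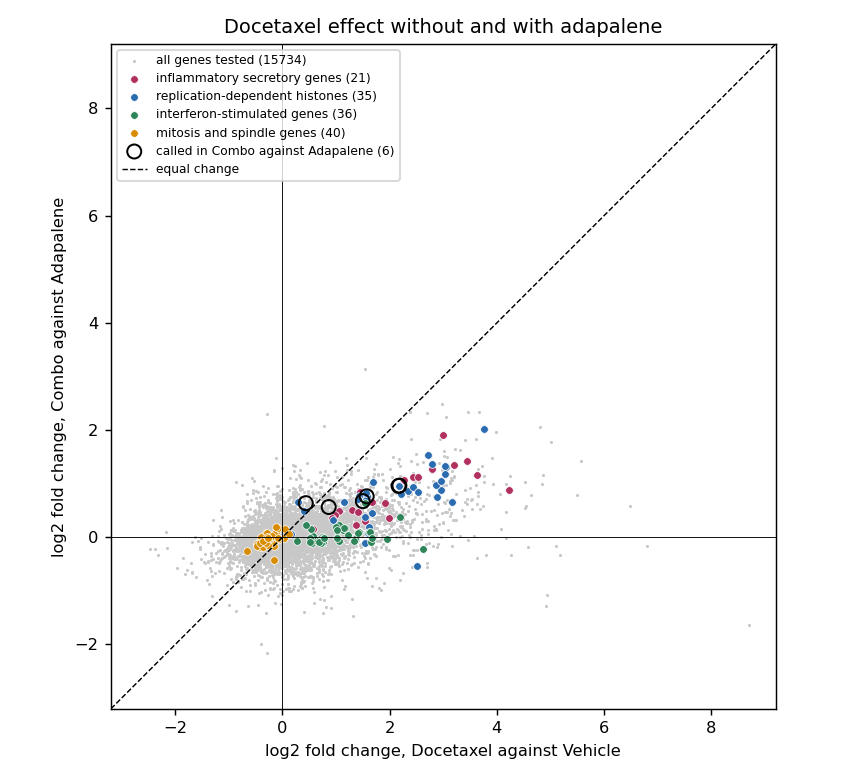
Each point is 1 of 15734 genes, with the log2 fold change of Docetaxel against Vehicle on the x axis and of Combo against Adapalene on the y axis; colours mark 4 gene lists, rings the 6 called genes and the dashed line equal change. Inflammatory genes and 33 of 35 histone genes lie above 0 on both axes, mostly below the line, and interferon-stimulated genes lie to the right near 0 on the y axis.

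Across the transcriptome, genes that docetaxel raised without adapalene tended to be higher in Combo than in Adapalene. Of the 2073 such genes 81% had a positive log2 value, with a median of 0.15, where their median for docetaxel alone was 0.81. Of the 2009 genes that docetaxel lowered 20.2% were positive, with a median of −0.08 against −0.37 alone. Over all genes tested 48.4% were positive and the median was −0.01. The 854 genes raised at least 2-fold had a median of 0.35 against 1.67. These classes were picked on the Docetaxel and Vehicle libraries, so the larger size there is a description. Pearson's r between both sets of log2 values was 0.44 across genes, with a slope through the origin of 0.19. Genes are not independent replicates, and the value ran from 0.08 with no filter on low counts to 0.59 with a minimum count of 50. It was 0.21 without Adapalene replicate 2 and 0.13 without Combo replicate 3, and the median of the raised genes was then 0.09 and 0.08. Without Adapalene replicate 3 or Combo replicate 2 that median was 0.23 and 0.22.

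Mitosis and spindle genes, which taxanes act on through the spindle, held no edgeR or DESeq2 call among 40 tested. At an unadjusted p under 0.05 there were 2 negative changes, CDK1 and TOP2A, and no positive one, and the median log2 change was −0.07. This count of 2 in 40 is near the share of all genes tested at that threshold (5.04%). With docetaxel alone 22 of them were called lower, with a median of −0.27, and none of the differences was called. MKI67, a proliferation marker gene, stood at 349, 303 and 400 CPM in Adapalene and 368, 295 and 282 CPM in Combo (log2 −0.15, 95% interval −0.41 to 0.10). PLK1, a mitotic kinase gene, stood at 74.9, 72.6 and 82.6 CPM and at 103, 87.9 and 72.5 CPM (log2 0.20, 95% interval −0.08 to 0.47). CCNB1, the mitotic cyclin B1 gene, differed by 0.07 on the log2 scale (95% interval −0.14 to 0.27). The libraries of both groups overlapped for all 3.

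DNA replication genes had a median log2 change of −0.10 over 39 members, with 5 above 0. EdgeR and DESeq2 called none, and 4 had a negative change at an unadjusted p under 0.05: GINS2, LIG1, POLE and RFC4. All Combo libraries lay below Adapalene in 6 of the 39 (15.4%), where 3.85% of all genes tested did so. With docetaxel alone 29 were called lower with a median of −0.40, and for 3 the difference was called, as a smaller fall with adapalene. Histone genes and DNA replication genes thus had medians of opposite sign in both comparisons.

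Tubulin and microtubule-associated genes, whose products are docetaxel's target and its partners, had a median of 0.00 over 30 members and no edgeR call. At an unadjusted p under 0.05 the MAP genes MAP1S (log2 0.33, the 1 DESeq2 call) and MAP7 (0.26) were positive, and STMN1, which encodes a microtubule destabiliser, was negative (−0.22). TUBA1B, an alpha-tubulin gene, stood at 1344, 1236 and 1387 CPM against 1567, 1416 and 1269 CPM (log2 0.10, 95% interval −0.15 to 0.35). TUBB3, a beta-tubulin gene linked to taxane resistance, was at 1.51 to 2.42 CPM in Adapalene and 2.06 to 3.43 CPM in Combo, and was not called. ABCB1, the drug efflux pump gene, had at most 16 counts in a library and was not tested. Of 10 tested efflux and metabolism genes edgeR and DESeq2 called none, with 2 positive at an unadjusted p under 0.05, among them CYP1B1 (log2 0.30). The log2 values of the 10 ran from −0.34 to 1.47.

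CDKN1A, the gene of the CDK inhibitor p21, was at 106, 90.8 and 126 CPM in Adapalene and at 146, 99.2 and 144 CPM in Combo. The groups overlapped (log2 0.27, 95% interval −0.05 to 0.58, adjusted p = 0.999). With docetaxel alone it rose by 1.43, and the difference was called (log2 −1.16, adjusted p = 0.0124). The CDKN1A means were 38.1 CPM in Vehicle, 103 in Docetaxel, 108 in Adapalene and 130 in Combo. The smaller docetaxel effect thus started from a higher level in Adapalene, and Combo had the highest mean. IGFBP5, which encodes an insulin-like growth factor binding protein and is listed with the arrest genes, was the 1 gene that DESeq2 called lower. It stood at 66.1, 66.2 and 58.6 CPM in Adapalene and 46.3, 49.98 and 42.8 CPM in Combo, without overlap (log2 −0.46, edgeR adjusted p = 0.201). Among 22 p53 target genes and 31 apoptosis regulators edgeR and DESeq2 called none, with 1 and 2 positive changes at an unadjusted p under 0.05 and no negative one. These counts are near the share of all genes tested at that threshold (5.04%). BCL2L1 and MCL1, survival genes of the BCL2 family, differed by −0.07 (95% interval −0.30 to 0.16) and 0.07 (−0.12 to 0.26).

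Retinoid pathway genes, the targets and receptors of adapalene's pathway, held no edgeR or DESeq2 call among 24 tested, with a median of 0.03. There was 1 positive change at an unadjusted p under 0.05, RARA (log2 0.25), near the share of all genes tested (5.04%). RARB, a receptor gene that retinoids are known to induce, stood at 1.58, 1.05 and 1.75 CPM in Adapalene and 2.18, 0.871 and 2.24 CPM in Combo. Vehicle had 2.825, 3.34 and 2.355 CPM, so RARB was not higher with adapalene here, a contrast that was not tested. For Combo against Adapalene its 95% interval of −0.47 to 1.02 on the log2 scale leaves a change of either sign possible. Of 26 genes for TIMPs, metalloproteinases and plasminogen activators neither edgeR nor DESeq2 called any. Their log2 values ran from −0.24 to 1.81, and 6 members were positive at an unadjusted p under 0.05. They include PLAU, the urokinase gene, at 1375, 1446 and 1130 CPM against 1529, 1559 and 1582 CPM (log2 0.24, adjusted p = 0.841). ICAM1, an adhesion ligand that helps natural killer cells bind, stood at 107, 87.9 and 120 CPM against 162, 125 and 190 CPM. The groups did not overlap, and DESeq2 called it (log2 0.60) where edgeR did not (adjusted p = 0.201).

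Of 28 cholesterol synthesis genes 17 were called lower with docetaxel alone, with a median of −0.35. On top of adapalene the median was 0.02 with no edgeR or DESeq2 call and 3 changes at an unadjusted p under 0.05, 2 positive and 1 negative. For 3 members the difference was called, all positive. FASN, the fatty acid synthase gene in that list, stood at 597, 629 and 536 CPM in Adapalene and 655, 748 and 608 CPM in Combo, and it was among these (log2 0.75, adjusted p = 0.0361). The FASN means were 850 CPM in Vehicle, 579 in Docetaxel, 587 in Adapalene and 670 in Combo, so Adapalene was already near Docetaxel. Mitochondrially encoded genes had a median of −0.34 over 13 members without a call by edgeR or DESeq2 or an unadjusted p under 0.05, but with no filter on low counts edgeR called 6 of them lower. Their sum ran from 12500 to 24300 CPM in Adapalene and from 8350 to 21000 CPM in Combo, highest in replicate 3 of each.

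The other 18 lists held 297 tested genes between them, which cover stress, hypoxia, antioxidant, matrix, adhesion, antigen presentation, natural killer cell ligand, epithelial, mesenchymal, lysosomal, prostate, fibroblast and endothelial genes. EdgeR called none of these on top of adapalene and DESeq2 called 5: the stress transcription factor gene ATF3, CEBPB, ICAM1, the mitochondrial superoxide dismutase gene SOD2 and ZEB2, a repressor gene of epithelial identity. At an unadjusted p under 0.05 there were 27 positive and 2 negative changes (9.76% of the 297, against 5.04% of all genes). List medians ran from −0.06 for prostate luminal genes to 0.25 for the 5 fibroblast markers tested. ZEB2, mentioned after its values were seen, went from 4.52, 2.82 and 6.42 CPM to 10.0, 5.88 and 12.2 CPM (log2 1.03, edgeR adjusted p = 0.444).

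**Figure D4:**
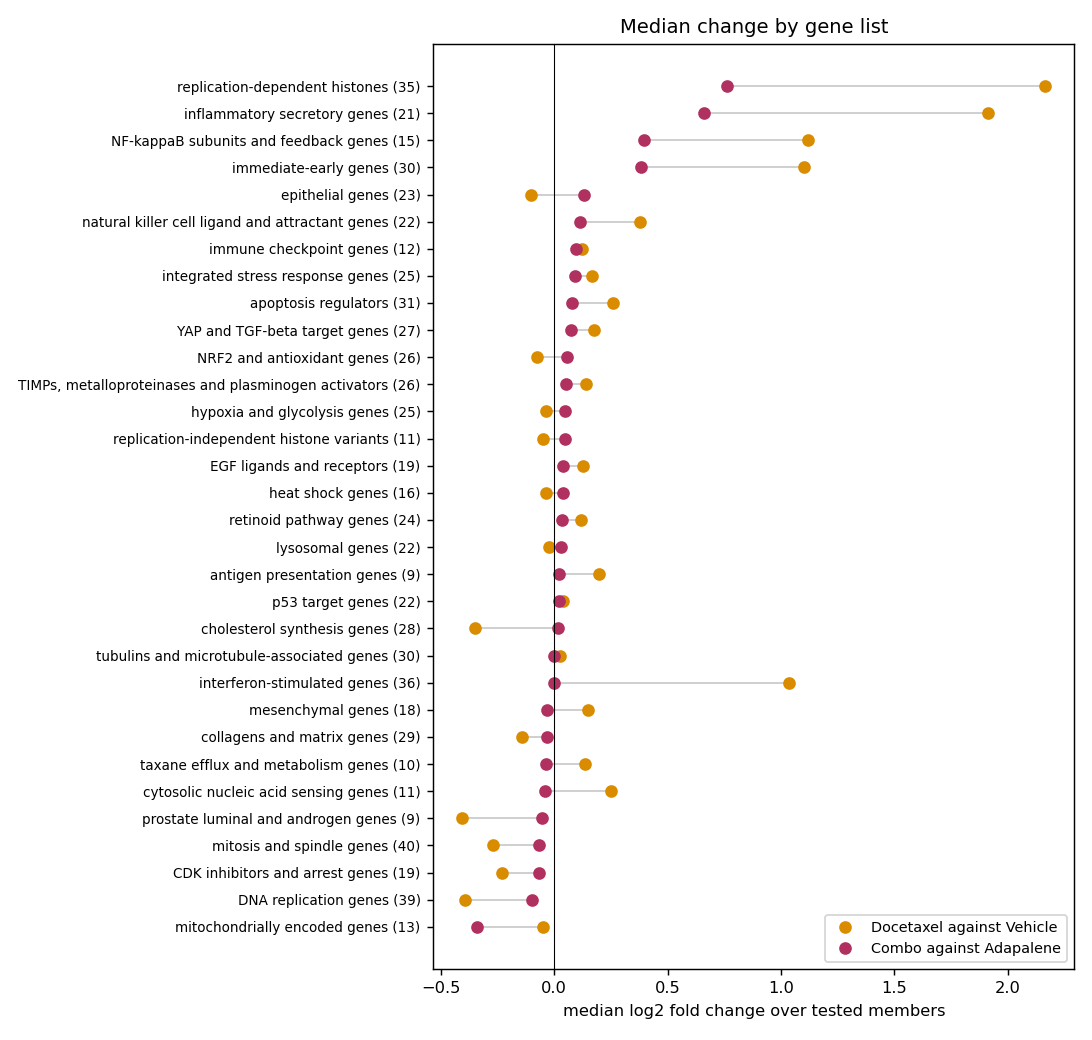
Median log2 fold change over the tested members of 32 gene lists (number tested in brackets) for Combo against Adapalene and for Docetaxel against Vehicle. Among these 32, replication-dependent histone, inflammatory, NF-kappaB and immediate-early lists have the 4 highest medians in both comparisons. Interferon-stimulated genes lie at 1.03 for docetaxel alone and 0.00 on top of adapalene. The PC3 check, fibroblast, leukocyte and endothelial lists are not drawn. The 2 leukocyte markers tested had medians of 0.83 for Combo against Adapalene and 1.82 for Docetaxel against Vehicle.

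Tested directly, the docetaxel effect differed with and without adapalene in 227 genes (1.44%), by 33 in the positive and 194 in the negative direction. DESeq2 called 464. The widest negative differences among genes of at least 5 CPM were those of EGR1, IL24 (log2 −3.35), IMPDH1P10 (−2.82), ABCA10 (−2.69) and ARC (−2.53). IL24, a cytokine gene of the IL-10 family, rose by 4.23 with docetaxel alone and stood at 11.3, 6.13 and 14.4 CPM in Adapalene and 24.4, 8.20 and 25.96 CPM in Combo (log2 0.88, adjusted p = 0.903). ARC, an immediate-early gene, had 2.80, 1.77 and 3.75 CPM against 5.98, 3.48 and 5.82 CPM (log2 0.88, adjusted p = 0.691). The widest positive differences were those of LOXL1-AS1 (1.14), CTXN1 (0.93), NUP210 (0.90), FADS2 (0.81) and IGFBP5 (0.79), which all fell with docetaxel alone. NUP210, a nuclear pore gene, fell by 0.95 there and stood at 231, 240 and 206 CPM in Adapalene and 226, 237 and 187 CPM in Combo (log2 −0.06, 95% interval −0.28 to 0.16).

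The number of calls on top of adapalene depended on single libraries. Without Adapalene replicate 1 edgeR made no call, with 616 genes at an unadjusted p under 0.05 and 16 DESeq2 calls. There was 1 call without Adapalene replicate 2, 19 without Adapalene replicate 3, 33 without Combo replicate 2 and 3 without Combo replicate 3. The Docetaxel libraries enter through the shared spread, the filter on low counts and the scaling. Leaving out replicate 1, 2 or 4 of them gave 2 calls and replicate 3 gave 3, with 15598 to 15670 genes tested. H1-2 remained called in 20 of 22 other settings, H2BC12 in 19, H2BC4 in 13, JUNB in 12 and PIM3 and H1-10 in 10 each. Many of the settings kept all Combo and Adapalene libraries and changed only other libraries, the filter, the scaling or the tool. The edgeR fit to the Combo and Adapalene libraries alone, with no block, made 0 calls. The log2 change of H1-2 ran from 0.80 to 1.04 over all 22 settings and that of H1-10 from 0.47 to 0.64, and none of the 6 genes changed sign. The number of called members also moved with the setting: it ran from 0 to 14 for replication-dependent histones, 0 to 15 for inflammatory, 0 to 7 for NF-kappaB, 0 to 8 for immediate-early and 0 to 6 for mitochondrially encoded genes. Each of these lists reached its highest number with no filter on low counts, and the remaining lists reached at most 4.

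**Figure D5:**
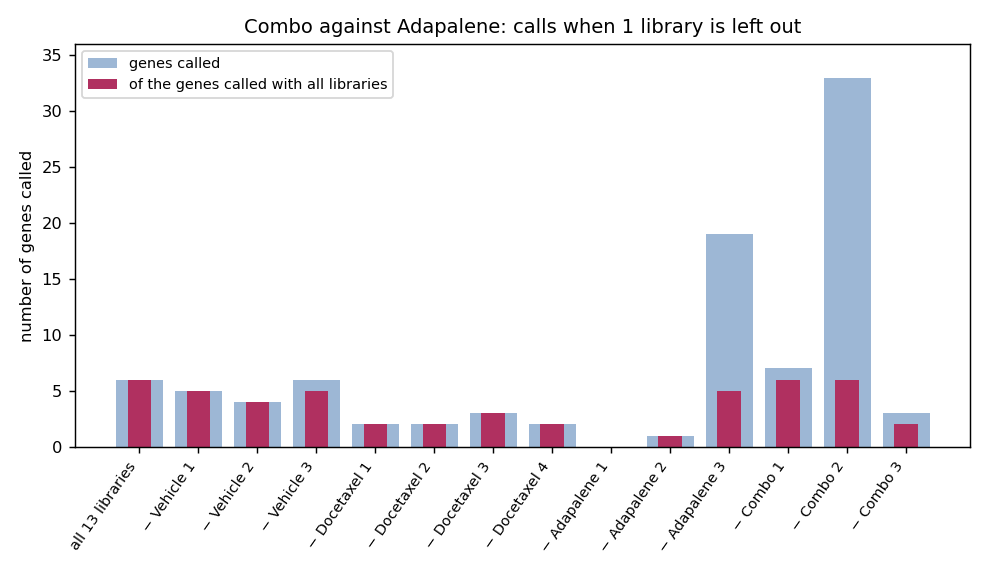
Number of genes called for Combo against Adapalene with all 13 libraries and with each library left out (wide bars), and how many of the 6 genes are among them (narrow bars). The count runs from 0 without Adapalene replicate 1 to 33 without Combo replicate 2.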

How the data were processed

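Poly(A)-selected RNA was read from 1 end in directional libraries, per the labels' protocols. STAR 2.7.10a, FastQC, DESeq2 and the build GRCh38.p13 are listed, with no role for any, in the submitters' processing notes. No label or note gives the counting program, strand setting or handling of reads with several matches. The deposited table gives, as the authors left them, unnormalised whole-number counts for 67882 identifiers, of which 42045 had a symbol. Gene coordinates are from GENCODE 29 (GRCh38), which lacks 9516 of the identifiers. Promoters are from RefSeq.

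The test was run on them with edgeR 4.0.16 in R 4.3.3: filterByExpr by group (minimum count 10, minimum total 15), TMM scaling, and 1 quasi-likelihood model of 4 group means over 13 libraries, in which all groups share the spread. From it came 3 comparisons, with Benjamini-Hochberg adjustment over all 15734 genes and calls under 0.05. CPM values are TMM-scaled, SE derives from the F statistic, and intervals are at 95%. DESeq2 1.42.0 was an alternative, with 2747 adjusted p-values of Combo against Adapalene given as NA. The edgeR model was run on simulated counts for Combo against Adapalene only, with changes of at least 2-fold and the same spread for all genes. The simulation did not cover smaller changes, DESeq2, the replicate block or the difference of the effects. The genes compared and the 36 lists were chosen with earlier results of these data known. Genes are named when called with at least 5 CPM and non-overlapping libraries (up to 10 in each direction), when among the top 4 called members of a list or its 2 most abundant uncalled ones, when on a list of 17 genes of interest, or when among the 5 widest called differences in each direction. Others are said to be chosen after their values were seen. No pair of libraries within any of the 4 groups agreed within sampling noise: chi-square per degree of freedom ran from 2.33 to 22.3. The depth of 11967957 to 16055293 counts limits the precision of genes of few CPM. Alternatives were another scaling, filter or tool, left-out libraries, a replicate block and fits to 6 libraries.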

Additional observations from a re-analysis of the deposited data

Results flagged for a closer look

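The docetaxel effect with adapalene differed from the effect without it, by the test of the difference, in 227 genes. Among the genes named here the difference (log2, Combo minus Adapalene less Docetaxel minus Vehicle) was negative for H1-2 (−1.22), H2BC4 (−1.21), H2BC12 (−0.81), JUNB (−0.83), ERRFI1 (−0.73), IL6 (−2.48), IL1A (−1.85), CXCL2 (−1.52), EGR1 (−4.14), FOS (−2.35), CDKN1A (−1.16), IL24 (−3.35), IMPDH1P10 (−2.82), ABCA10 (−2.69) and ARC (−2.53). It was positive for FASN (0.75), LOXL1-AS1 (1.14), CTXN1 (0.93), NUP210 (0.90), FADS2 (0.81) and IGFBP5 (0.79). A difference of the same sign can come with unlike levels. CDKN1A and ERRFI1 had higher means in Adapalene (108 and 441 CPM) than in Vehicle (38.1 and 255 CPM). Both were highest in Combo (130 and 467 CPM). For H1-2 Adapalene (39.9 CPM) was near Vehicle (44.1 CPM), and Combo (77.8 CPM) stayed below Docetaxel (200 CPM).

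In 8 of the named genes 1 Docetaxel library stood apart from the other 3 by Dixon's criterion, which chance meets in about 1 in 20 groups. It was mostly Docetaxel replicate 3, at 198 CPM for JUNB, 387 CPM for TNIP1 and 462 CPM for BCL2L1. The same replicate stood at 2399 CPM for ALDH1A3, 1266 CPM for TGM2 and 1189 CPM for KRT19. Docetaxel replicate 4 was the distant one for CCND1 (830 CPM) and HSP90AA1 (2506 CPM). The genes share these libraries and are not independent of each other. These libraries enter the comparison of Combo with Adapalene through the shared spread, the filter on low counts and the scaling.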

How the results depend on the processing

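For Combo against Adapalene, where 6 genes were called, DESeq2 called 39 genes, edgeR with no filter on low counts 128 (106 higher, 22 lower), and edgeR on the 6 libraries alone 0 (449 at an unadjusted p under 0.05, and 17 by DESeq2 on those libraries). Leaving out 1 library gave 0 to 33 calls. For docetaxel alone the 4082 calls ran from 2347 to 4680 with 1 library left out. For the difference of the effects, 227 calls became 464 with DESeq2, 946 with no filter and 365 without Combo replicate 3 and Adapalene replicate 3, with a range of 59 to 523 when 1 library was left out (59 without Vehicle replicate 2, 523 without Combo replicate 3). The last alternative with 2 libraries left out gave 9 calls for Combo against Adapalene, 3 of them among the 6. Over 1996 values of 91 named genes 48 lost and 33 gained a call, no called change turned its sign, and 98 uncalled values did. The cause of these changes was not tested. Genes of few CPM are limited by depth.

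With the replicate number as a block (replicate block) over 13 libraries 2 genes were called for Combo against Adapalene, H1-2 and H2BC12. Number 4 occurs only in Docetaxel, so that library did not inform the group means or the spread of this fit. Docetaxel replicate 3 had 0.722% mitochondrially encoded counts, against 2.56 to 2.82% in replicate 3 of the other groups. The numbers may thus not mark like libraries across groups. On the 6 libraries alone, with the same replicate block added after seeing the data, 75 were called (69 higher, 6 lower), including all 6 genes and 35 of those that DESeq2 called. Deviations of same-numbered Combo and Adapalene libraries correlated at 0.02, 0.53 and 0.41 for numbers 1 to 3, and those of unlike numbers at −0.57 to 0.20. Deviations are taken from each group's mean, so these values depend on each other and do not settle whether numbers pair libraries. The labels do not say that they do. The alternatives that left out Docetaxel or Vehicle libraries for this comparison, and Combo replicate 3 with Adapalene replicate 3 for the others, were also chosen after seeing the data.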
